A study of Mus musculus with 8 samples.

Results

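Keratin-associated proteins (Krtap genes) were examined in skin of mouse embryos at E17.5 (embryonic day). The members were all probe sets of the deposited array table whose platform annotation gives a symbol that starts with Krtap and a digit. They numbered 59 of 23410 probe sets with a gene symbol. Of these, 44 carried 1 symbol and are named below, 1 probe set per gene, from 21 subfamilies (the number before the hyphen). The other 15 carried several symbols: 7 listed several Krtap genes and 8 listed 1 Krtap gene with other symbols. Together they covered 50 Krtap symbols in 23 subfamilies, and 6 of these symbols stood only on shared probe sets. Dim probe sets were kept.

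The series compared 4 arrays of embryos labelled PPARgamma null (PpargΔ/Δ in their titles) with 4 arrays of embryos labelled PPARgamma wildtype, called control, all on a mixed C57BL6/SV129 background. Pparg encodes the nuclear receptor that drives adipocyte differentiation. Each array carried 1 individual RNA of full-thickness skin, which holds epidermis, hair follicles, dermis and fat; the labels give no litter, no sex and no tissue or promoter for the deletion. In such bulk tissue fewer cells of a type and less RNA per cell cannot be told apart. The p-values set the difference between the group means against the spread among the 4 RNAs within each group.

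Keratin-associated proteins form the matrix between the keratin filaments of the hair shaft. They are made late, in the cortex and cuticle cells above the hair bulb, after the first hair keratins. Some families are rich in cysteine and cross-link the keratins by disulfide bonds (Krtap1 to Krtap5, Krtap9, Krtap10, Krtap11, Krtap12, Krtap13 and Krtap17), and others are rich in glycine and tyrosine (Krtap6, Krtap7, Krtap8, Krtap19, Krtap20 and Krtap21). Many members are near-identical copies of each other, so a probe set can pick up transcripts of neighbours. In embryonic mouse skin the follicles form in waves, and the earliest are the ones that start to differentiate before birth.

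The 44 genes lie in a few clusters of the genome in the RefSeq gene table: 21 on chromosome 16, 15 on chromosome 11, 5 on chromosome 7 and 3 on chromosome 10. Their promoters shared a feature that the choice of members did not use. RefSeq promoters of 300 bases (250 before and 50 after the start of a gene, GRCm38.p6) matched 40 of the 44 genes. The TATA box motif TATAAA stood on either strand in 32 of these 40 promoters (80%), against 13.6% of all 32851 promoters of that length. Many members are copies of each other, so the 40 promoters are not 40 independent counts. The shorter motif TATAA, chosen after the sequences were seen, lay on the gene's own strand between 45 and 16 bases before the start in 28 of the 40 (70%), against 3.89% of all. The stretches of 100 bases just before the start are shown for the 2 named genes with the highest mean array value, with the TATAA of the TATA box in capitals.
Krtap17-1, chr11:99993995-99994094, minus strand: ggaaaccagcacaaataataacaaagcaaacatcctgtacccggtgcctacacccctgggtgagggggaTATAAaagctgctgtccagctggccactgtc
Krtap5-3, chr7:142201264-142201363, plus strand: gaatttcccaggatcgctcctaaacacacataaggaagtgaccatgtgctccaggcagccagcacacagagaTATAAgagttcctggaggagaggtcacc
The capitals begin 31 bases before the start in Krtap17-1 and 28 bases before it in Krtap5-3. Krtap17-1 holds the full TATAAA there, whereas the box of Krtap5-3 goes on with a g.

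Motifs of regulators of hair genes were more common in Krtap promoters too, by smaller margins and over the same related genes. CTTTGA, the core bound by LEF1 and TCF factors, which act in the cells that become hair cortex, stood on either strand in 14 of 40 Krtap promoters (35%), against 16% of all. TTTAT, a core of the HOXC13 site, was found in 35 of 40 (87.5%), against 40% of all. The complement of the TATA box contains TTTAT, and outside the TATA motif it stood in 18 of 40 (45%), against 33.5% of all. The median GC content of the 300 bases was 41.3% in Krtap promoters, against 52.7% in all, and its part in the counts of these motifs, which are mostly A and T, was not tested. The TATAA near the start was present for 10 of 13 genes whose probe set passed the brightness filter described below and for 18 of 27 that did not.

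**Figure D1:**
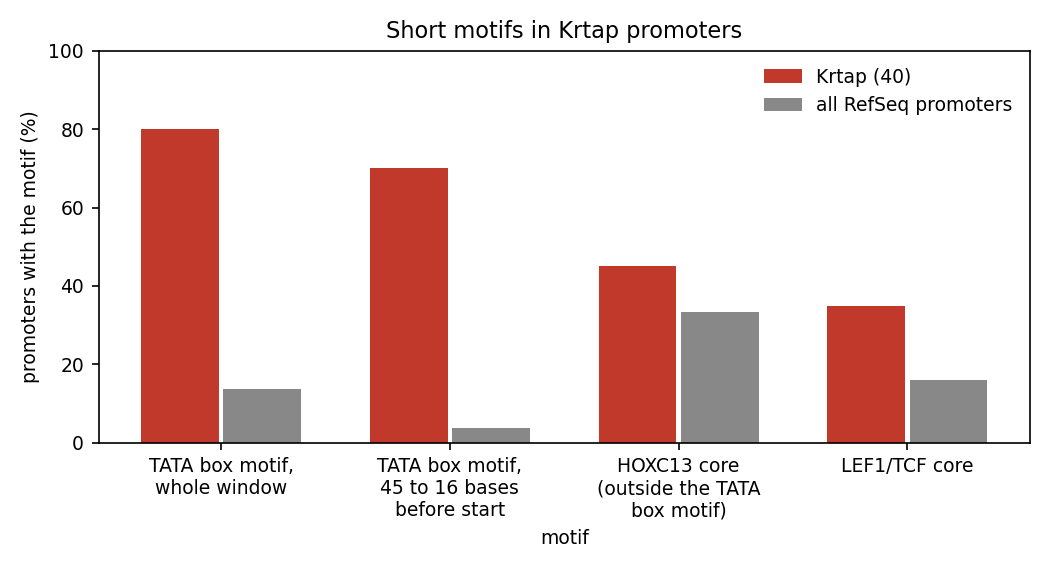
Share of promoters (%, y axis) that hold a short motif (x axis), for 40 Krtap promoters (red) and all 32851 RefSeq promoters of 300 bases (grey). The second pair of bars counts TATAA on the gene's own strand between 45 and 16 bases before the start, where 70% of Krtap promoters and 3.89% of all have it; the other pairs count a motif on either strand of the whole window.

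The arrays were alike in scale. Their medians lay between 6.93 and 6.96 on the log2 scale, and pairs of arrays correlated across probe sets at 0.989 to 0.994. The Pparg probe set, which checks the labels only if it reads the deleted part, was at 9.14, 9.19, 9.19 and 8.98 on the arrays labelled null 1 to 4, against 8.79, 8.88, 9.04 and 9.06 on control arrays 1 to 4. It was not lower on the labelled-null arrays, so directions below are given for the labels. The first principal component of autosomal probe sets put labelled-null array 4 at -22.6 and control array 1 at -9.57, and the other arrays between -3.52 and 10. Over all 23410 probe sets, limma called 15 at an adjusted p of 0.05, of which 14 were lower (0.0598%) and 1 was higher (0.00427%) in labelled-null skin.

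Most of the 44 Krtap genes with a probe set of their own were dim on the arrays of both genotypes. The brightness filter asked for a value over the 30th percentile of the array (5.62 to 5.67 on the log2 scale) on 4 or more of the 8 arrays. Of the 44 named genes 16 passed and 28 did not, whereas 75.2% of all probe sets passed. All 15 probe sets with several symbols passed. By protein type, 15 of 24 cysteine-rich genes passed (among them all 3 of subfamilies 10 and 12, and 4 of 5 of subfamily 5), against 1 of 13 glycine-tyrosine-rich genes (Krtap19-4). Among probe sets with 1 symbol, 0 passed in subfamilies 6, 7, 8, 13 to 16, 21, 24, 26 and 31. A dim value is no proof that a gene is silent. The brightness of a probe set depends on its probes as well as on its transcript. For the same reason the counts by protein type and subfamily describe array values and do not compare transcript levels between genes. Just inside the filter lay Krtap5-4, above the percentile on 4 arrays, and just outside lay Krtap3-2, Krtap4-1, Krtap4-2 and Krtap5-5, each on 3 arrays.

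No Krtap probe set passed the test between the genotypes. By limma 0 of 59 probe sets passed an adjusted p of 0.05, where 0.0641% of all probe sets did (0 of 59 lower, beside 0.0598%, and 0 of 59 higher, beside 0.00427%), and the lowest adjusted p was 0.99996. At an unadjusted p of 0.05 the count was again 0 of 59, where 3.46% of all passed. With 1 array left out this unadjusted count was 0 without control array 3, 1 without control array 1 or 4 or labelled-null array 1, 2 or 4, 2 without labelled-null array 3 and 3 without control array 2, and 0 of 59 passed the adjusted threshold in each of these fits. In 0 of 59 were the 4 labelled-null values all above or all below the 4 control values, as was the case for 2.15% of all probe sets. The differences of the 44 named genes, in log2 units of labelled null minus control, ran from -0.16 to 0.20 with a median of 0.02, against a median of 0.0014 over all probe sets. Of the 44, 19 lay below control and 25 above, while 49.1% of all probe sets lay below. Every one of the 59 intervals (95%, limma) left out a 1.5-fold difference in either direction, as did 98.1% of all. The lowest bound was -0.51 and the highest 0.46. Of all probe sets under the brightness filter, 98.5% left it out too. For the 28 named genes under the filter the interval describes a dim array value and need not carry over to the transcript. Differences within a probe set's own interval are not excluded by 4 arrays a group.

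**Figure D2:**
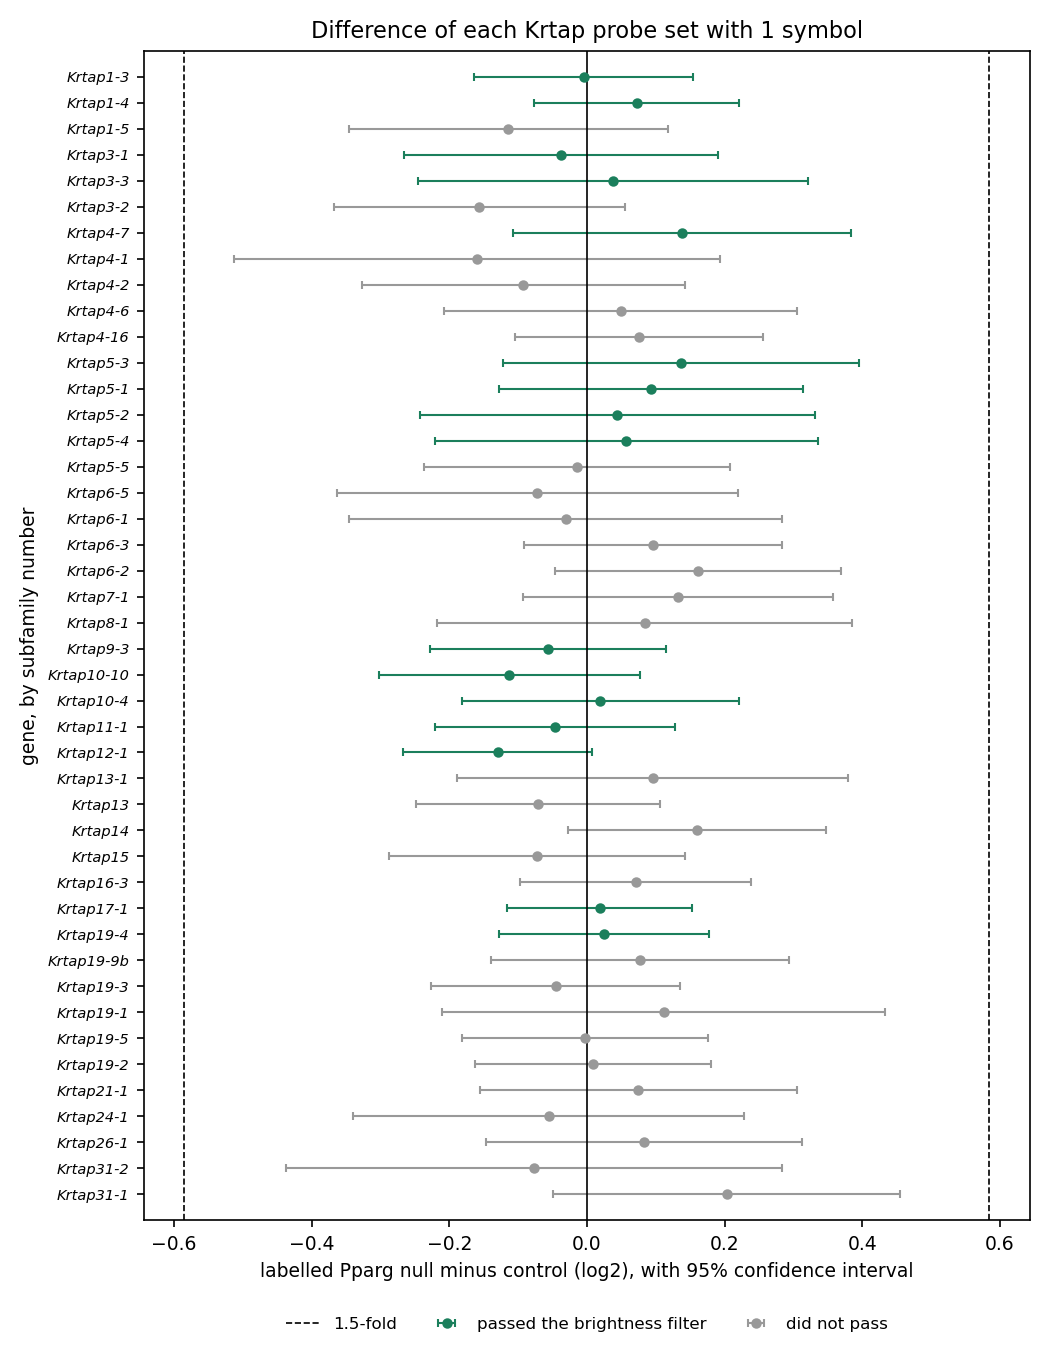
Difference in log2 units (x axis; labelled Pparg null minus control, with 95% limma confidence interval) for each of the 44 Krtap genes with a probe set of their own (y axis, by subfamily number). Green points passed the brightness filter and grey points did not. All intervals include 0 and lie within the dashed lines at 1.5-fold. For grey points the interval describes a dim array value and need not carry over to the transcript.

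Among the cysteine-rich families, Krtap17-1 gave 9.19, 9.18, 9.10 and 9.27 in labelled-null skin, against 9.26, 9.06, 9.19 and 9.16 in control skin (log2). The groups overlapped throughout, with means of 9.19 ± 0.07 and 9.17 ± 0.08 (SD, n = 4 each) and a difference of 0.02 (95% interval -0.12 to 0.15). Subfamily 5, a cluster on chromosome 7, had 5 genes of its own with differences from -0.01 to 0.14. Krtap5-3 was at 8.33, 8.10, 8.30 and 8.30 in labelled-null skin, against 8.12, 8.45, 7.85 and 8.07 in control skin. The control values enclosed all labelled-null values, and the difference of 0.14 had an interval of -0.12 to 0.40. Krtap5-1 was at 8.24, 7.99, 7.94 and 8.29 in labelled-null skin, against 8.23, 7.96, 7.97 and 7.92 in control skin. Its high values were those of labelled-null arrays 1 and 4 and control array 1, and the groups overlapped (difference 0.09).

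Subfamilies 1 to 4 and 9 lie together on chromosome 11. Krtap9-3 was at 7.63, 7.70, 7.49 and 7.79 in labelled-null skin, against 7.85, 7.69, 7.66 and 7.63 in control skin. Krtap3-1 was at 7.53, 7.45, 7.27 and 7.71 in labelled-null skin, against 7.69, 7.61, 7.43 and 7.39 in control skin. In both genes the highest labelled-null value was that of array 4 and the highest control value that of array 1, and the differences were -0.06 and -0.04. Krtap1-3 was at 7.39, 7.36, 7.38 and 7.42 in labelled-null skin, against 7.59, 7.34, 7.27 and 7.37 in control skin, a difference of -0.0049. The labelled-null values spanned less than the control values, which enclosed them. Krtap1-4 and Krtap4-7 differed by 0.07 and 0.14.

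Krtap4-1, Krtap3-2 and Krtap31-1, which did not pass the brightness filter, were among the genes with the largest differences of either sign. Krtap4-1 was at 5.88, 5.60, 5.42 and 5.55 in labelled-null skin, against 6.13, 5.55, 5.98 and 5.44 in control skin (difference -0.16, interval -0.51 to 0.19). Krtap3-2 was at 5.76, 5.39, 5.30 and 5.52 in labelled-null skin, against 5.56, 5.62, 5.75 and 5.66 in control skin (difference -0.16, interval -0.37 to 0.06). Krtap31-1 was at 4.57, 4.14, 4.28 and 4.28 in labelled-null skin, against 4.02, 4.03, 4.01 and 4.40 in control skin. The labelled-null values of Krtap31-1 lay above control arrays 1 to 3 and, but for array 1, below control array 4 (difference 0.20, interval -0.05 to 0.46). Krtap31-2, its neighbour in the subfamily, differed by -0.08.

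On chromosome 10, Krtap12-1 came nearest to a difference. It was at 6.88, 7.08, 7.06 and 7.09 in labelled-null skin, against 7.18, 7.08, 7.19 and 7.17 in control skin. Control array 2 lay among the labelled-null values, and the means were 7.03 ± 0.10 and 7.16 ± 0.05 (SD, n = 4 each). The difference of -0.13 had an interval of -0.27 to 0.0077, a limma adjusted p of 0.99996 and an exact two-sided permutation p of 0.0857, with 0.0286 the smallest that 4 against 4 arrays can give. Krtap10-10 was at 7.34, 7.37, 7.19 and 7.06 in labelled-null skin, against 7.53, 7.32, 7.30 and 7.25 in control skin (difference -0.11). Krtap10-4 was at 6.57, 7.05, 6.78 and 6.83 in labelled-null skin, against 6.84, 6.79, 6.75 and 6.78 in control skin (difference 0.02). The labelled-null values of Krtap10-4 reached both above and below all control values.

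**Figure D3:**
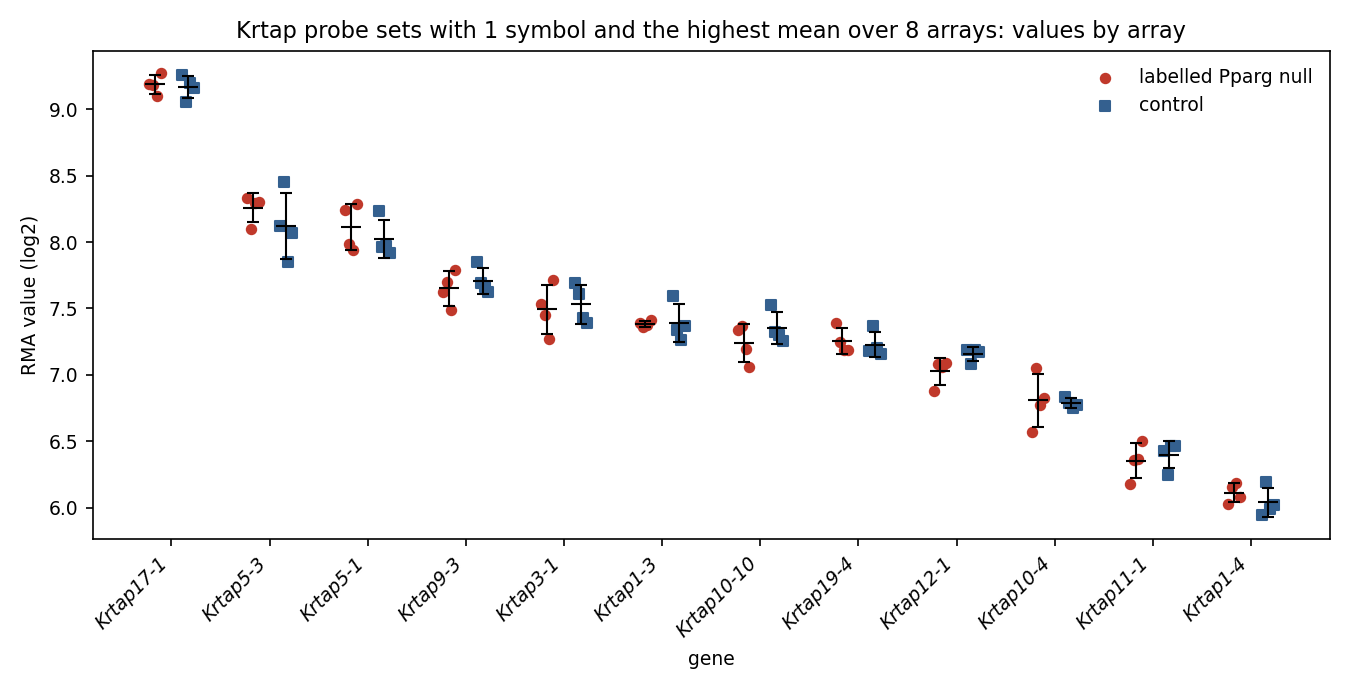
RMA values (log2, y axis) of the 12 Krtap genes with the highest mean over 8 arrays (x axis), 1 point per array, with labelled Pparg null arrays as red circles left of control arrays as blue squares; bars show the mean ± SD of 4 arrays. In each gene the points of the groups overlap. Heights are not comparable between genes.

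The families on chromosome 16 hold the glycine-tyrosine-rich genes and several sulfur-rich ones. Krtap19-4 was at 7.39, 7.25, 7.19 and 7.18 in labelled-null skin, against 7.18, 7.37, 7.20 and 7.16 in control skin (difference 0.02, interval -0.13 to 0.18). Krtap11-1, a sulfur-rich gene of the hair cortex, was at 6.18, 6.36, 6.37 and 6.50 in labelled-null skin, against 6.42, 6.25, 6.46 and 6.46 in control skin (difference -0.05, interval -0.22 to 0.13). The groups overlapped in both genes. Krtap6-2 was at 3.40, 3.34, 3.20 and 3.56 in labelled-null skin, against 3.43, 3.09, 3.14 and 3.19 in control skin (difference 0.16, interval -0.05 to 0.37). Krtap14 was at 5.32, 4.99, 5.38 and 5.10 in labelled-null skin, against 5.04, 5.05, 5.01 and 5.05 in control skin (difference 0.16, interval -0.03 to 0.35). Its labelled-null arrays 1 and 3 were high and the other two close to the 4 control values. Of the brightest genes of the subfamilies not yet described on this chromosome, and of Krtap6, Krtap6-5 differed by -0.07, Krtap7-1 by 0.13, Krtap8-1 by 0.08, Krtap13-1 by 0.10, Krtap15 by -0.07, Krtap16-3 by 0.07, Krtap21-1 by 0.07, Krtap24-1 by -0.06 and Krtap26-1 by 0.08.

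By protein type, the median difference was 0.0067 over 24 cysteine-rich genes, with 12 below control, and 0.07 over 13 glycine-tyrosine-rich genes, with 4 below control. Among subfamilies with at least 3 genes of their own, the medians were -0.0049 (Krtap1), -0.04 (Krtap3), 0.05 (Krtap4), 0.06 (Krtap5), 0.03 (Krtap6) and 0.02 (Krtap19). By chromosome they were 0.06 on 7, -0.11 on 10 (3 genes), -0.0049 on 11 and 0.07 on 16. Differences between subfamilies or types were not tested. The within-group SD had a median of 0.160 over the 44 genes, against 0.105 over all probe sets and 0.124 over all those under the brightness filter.

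Among the 15 probe sets with several symbols, which were all bright enough for the filter, 0 passed the test. Their 15 differences ran from -0.07 to 0.05 with a median of -0.0096, and 12 lay below control, beside 49.1% of all probe sets. These are not 15 separate readings. Several list the same gene, and their deviations from the group means correlated with a median r of 0.76. The probe set shared by Krtap10-4 and Krtap10-10 with 8 other symbols was at 9.39, 9.44, 9.22 and 9.10 in labelled-null skin, against 9.40, 9.32, 9.38 and 9.20 in control skin (difference -0.04). The 4 probe sets for Krtap2-4, each with 2 other symbols, differed by -0.05 to -0.03, and 2 of the 4 held identical values on all 8 arrays and are 1 measurement. The probe set shared by Krtap6-5 and Krtap6-1 was at 7.97, 7.95, 7.999 and 7.91 in labelled-null skin, against 8.10, 7.91, 8.14 and 7.96 in control skin, the most negative difference of this kind (-0.07, interval -0.21 to 0.07).

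Variation between arrays of the same group was shared by part of the members, more so among shared probe sets than among named genes. Labelled-null array 4 was the highest of its group in 35 of 59 Krtap probe sets (59.3%), against 34.7% of all probe sets. Of all probe sets under the brightness filter it was the highest in 41.0%. By kind it was the highest in 24 of the 44 named genes and 11 of the 15 shared probe sets. Control array 1 was the highest of its group in 36 of 59 (61.0%), against 32.3% of all and 48.0% of all under the filter. By kind it was the highest in 22 of the 44 named genes and 14 of the 15 shared probe sets. Both held in 27 of 59 (45.8%), against 16.5% of all and 22.3% of all probe sets under the brightness filter. By kind both held in 16 of the 44 named genes (36.4%) and 11 of the 15 shared probe sets, some of which repeat a measurement. Of the 28 named genes under the filter, labelled-null array 4 was the highest in 14 (50%) and control array 1 in 13 (46.4%). Both held in 9 of the 28 (32.1%). The median deviation of the 44 named genes from their mean over 8 arrays was 0.11 on labelled-null array 4, -0.09 on labelled-null array 3, 0.05 on control array 1 and -0.07 on control array 4. Over all probe sets under the brightness filter it was 0.05, -0.03, 0.05 and -0.04 on these arrays. Over pairs of members, the deviations from the group means correlated with a median r of 0.16 among the 44 named genes and 0.76 among the 15 shared probe sets, described over 8 arrays that all pairs share; the shared probe sets also share symbols and may share probes. Without control array 1 and labelled-null array 4, limma called 0 of 59 Krtap probe sets, the named genes differed by -0.20 to 0.19 and 20 of 44 lay below control.

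On labelled-null array 4 and control array 1 the median deviation was positive for Krtap probe sets and negative for inner root sheath genes. The inner root sheath encloses the growing hair shaft and hardens before it. The median deviation of its 10 listed genes was -0.20 and -0.17 on these arrays, the lowest of their groups, and 0.46 on control array 3. Their mean level ran from 6.21 to 6.77 on labelled-null arrays and from 6.48 to 7.16 on control arrays. Not every gene followed the median: labelled-null array 4 was the lowest of its group in 4 of the 10 and the highest in 2. All 10 lay below control, beside 49.1% of all probe sets, with a median difference of -0.25. By limma 0 of 10 passed an adjusted p of 0.05 (beside 0.0641%) and 2 had an unadjusted p under 0.05 (beside 3.46%). The genes of a list share the same 8 arrays, and no list was tested as a set. Krt71, one of its keratins, was at 6.33, 6.50, 7.14 and 6.13 in labelled-null skin, against 6.82, 7.43, 8.05 and 7.63 in control skin. Krt27, another one, was at 6.62, 6.45, 6.78 and 6.56 in labelled-null skin, against 6.63, 6.88, 7.30 and 7.05 in control skin. In both genes control array 1 was the lowest of the control arrays and lay among the labelled-null values. What part these differences between arrays had in the Krtap values was not tested.

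**Figure D4:**
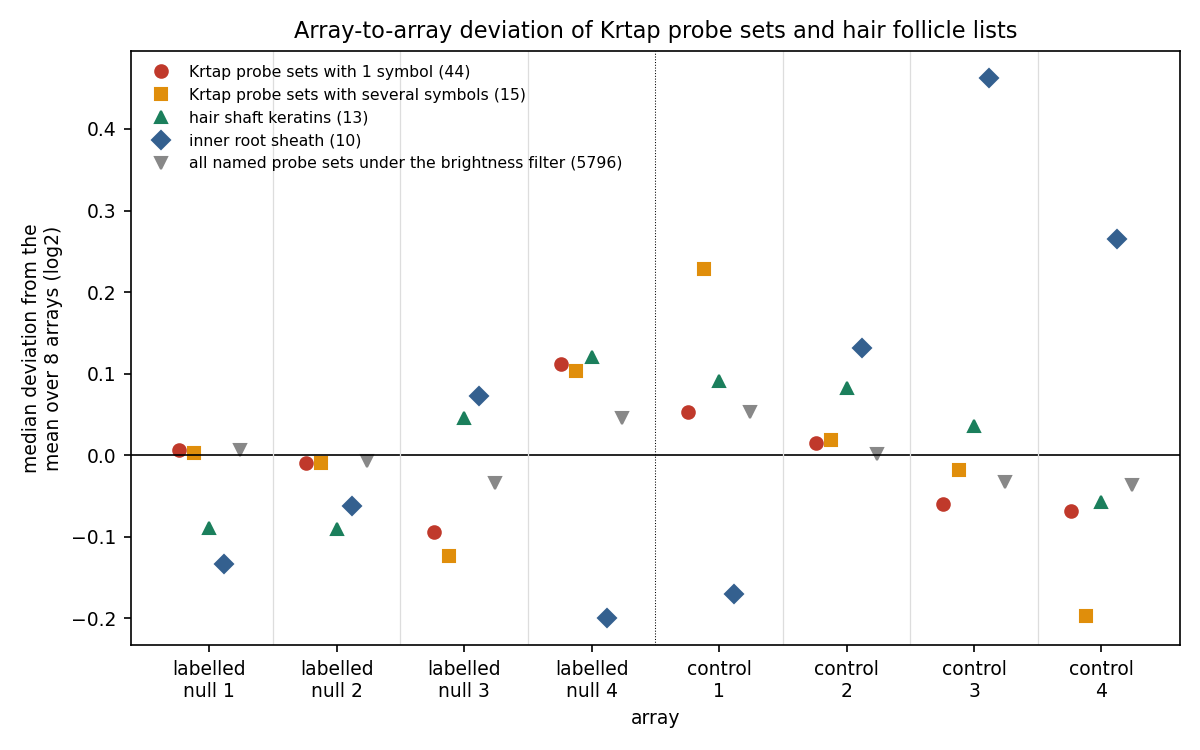
Median deviation from the mean over 8 arrays (log2, y axis) on each array (x axis; labelled Pparg null arrays left, control arrays right) for Krtap probe sets with 1 symbol, Krtap probe sets with several symbols, hair shaft keratins, inner root sheath genes and all named probe sets under the brightness filter. On labelled-null array 4 and control array 1 both kinds of Krtap probe sets lie above 0 and inner root sheath genes below it. Hair shaft keratins and all named probe sets under the brightness filter also lie above 0 on these arrays.

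Hair shaft keratins, the partners of keratin-associated proteins in the cortex and cuticle, were found for 13 of 16 listed genes, and 10 of the 13 passed the brightness filter. By limma 0 of 13 passed the adjusted threshold (beside 0.0641% of all probe sets). 1 gene, Krt31, had an unadjusted p under 0.05 (beside 3.46%). The median difference was -0.07, with 10 of 13 below control, beside 49.1% of all. The mean level of the list ran from 6.06 to 6.24 on labelled-null arrays and from 6.12 to 6.24 on control arrays. Krt31, a keratin of the cortex, was at 5.61, 5.77, 5.91 and 5.65 in labelled-null skin, against 6.07, 6.06, 5.97 and 5.76 in control skin (difference -0.23, interval -0.43 to -0.03). Control array 4 lay among the labelled-null values. The median deviation of the list was highest on labelled-null array 4 (0.12) and control array 1 (0.09) within their groups. Krt34 and Krt33a differed by -0.18 and 0.10.

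Of 10 other genes of hair cortex and cuticle, 0 passed limma's adjusted threshold (1 at an unadjusted p under 0.05), 7 lay below control and the median was -0.07. Of all probe sets 0.0641% passed that threshold, 3.46% had an unadjusted p under 0.05 and 49.1% lay below control. Dsg4, a desmosomal cadherin of the hair cortex, was at 5.15, 5.06, 5.05 and 5.12 in labelled-null skin, against 5.22, 5.37, 5.44 and 5.37 in control skin. The groups of Dsg4 did not overlap (difference -0.26, interval -0.39 to -0.12), with a limma adjusted p of 0.705 and an exact two-sided permutation p of 0.0286, the smallest possible; the probe set did not pass the brightness filter. Of 12 regulators of hair shaft genes, 0 passed limma's adjusted threshold (0 at an unadjusted p under 0.05). Below control lay 9, beside the same 49.1% of all probe sets, and the median was -0.11. Hoxc13, a homeobox factor that activates hair keratin and Krtap genes, was at 6.65, 6.69, 6.96 and 6.12 in labelled-null skin, against 6.66, 7.05, 7.24 and 6.95 in control skin (difference -0.37, interval -0.76 to 0.02). Its lowest value in each group was on labelled-null array 4 and control array 1. Foxq1 and Msx1 differed by -0.20 and -0.14.

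Markers of other compartments of skin gave the same counts with 1 exception. By limma 0 genes passed among 11 of the outer root sheath and bulge (median difference -0.10), 11 of suprabasal epidermis (-0.0042), 6 of basal epidermis (-0.02), 8 of the dermal papilla (-0.02), 8 of dermal fibroblasts (-0.03), 8 of skeletal muscle (-0.03), 6 of melanocytes (-0.04), 3 erythroid genes (0.17) and 6 of mast cells (-0.08). At an unadjusted p under 0.05 the counts were 1 in the dermal papilla, 1 erythroid, 2 in mast cells and 0 in the other lists of that sentence. Of all probe sets 0.0641% passed the adjusted threshold and 3.46% had an unadjusted p under 0.05. Among 9 white adipocyte genes other than Pparg, 3 fell past the adjusted threshold in labelled-null skin (Cd36, Fabp4 and Lpl), beside 0.0598% of all. Their list had a median difference of -0.85, and the groups did not overlap in 7 of the 9 genes, beside 2.15% of all probe sets. The groups also did not overlap in 1 dermal fibroblast gene and 1 erythroid gene. Several of these lists moved with labelled-null array 4. It was the highest of its group in 9 of 11 suprabasal genes, whose mean level there was 11.7, against 11.4 to 11.5 on the other labelled-null arrays and 11.4 to 11.5 on control arrays. It was the lowest of its group in 7 of 8 skeletal muscle genes, whose mean level was 11.34 there, 11.47 to 11.87 on the other labelled-null arrays and 11.48 to 11.73 on control arrays. The same array was the lowest of its group in 6 of 8 dermal fibroblast genes (mean level 11.69, against 11.81 to 11.83 on the other labelled-null arrays and 11.79 to 11.86 on control arrays) and in 5 of 8 dermal papilla genes (8.29, against 8.51 to 8.605 on the other labelled-null arrays and 8.42 to 8.63 on control arrays). It was also the lowest in 6 of 11 outer root sheath or bulge genes. The part of these lists in the Krtap values was not tested.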

How the data were processed

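From each sample 100 ng of total RNA went into whole-transcript amplification and was labelled with biotin and hybridised to 1 Affymetrix array per sample, per the labels' protocols. Per the submitters' processing notes, the authors used RMA and Affymetrix Expression Console; the deposited values are on a log2 scale. Versions, build and filters: not given in the sources used here. RMA brings the arrays to one distribution, which hides any shift common to all transcripts. Depth does not apply, and 4 arrays a group limit the precision.

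Groups follow the titles and genotype labels. The table has 35556 probe sets. The platform annotation names 1 gene for 21789 and several for 1621 and lists none for 12146; all 44 Krtap symbols were the same in the RefSeq table (GRCm38.p6), and the chromosomes come from it. Every probe set with a symbol was fitted with limma 3.58.1 (R 4.3.3, statmod 1.5.0; lmFit, eBayes, two-sided, Benjamini-Hochberg over 23410, no covariates). Exact permutation used all 70 assignments. On simulated data with 23410 probe sets, differences of 0.5 and 1 were recovered in 71.2% and 97.6%, with 4.66% false calls. The noise there was normal and independent between probe sets, without the shared variation between arrays described above. These rates need not hold for the real arrays. The 44 named genes had a median within-group SD of 0.160, against 0.105 over all probe sets. Genes named are the 12 brightest, the 6 with the lowest p, the 6 with the largest difference, and the brightest of each subfamily. From other lists, the genes named other than Pparg are among the 3 with the lowest p of their list. Not all of those 3 are given for every list. Protein classes are textbook ones, since no protein sequences were used here to compute composition; subfamilies 14, 15, 16, 24, 26 and 31 were left without a class. Members and lists were chosen with earlier results of these data known. Alternatives were other filters, probe sets, scalings, priors, weights, a replicate block, a stricter threshold and leaving out arrays.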

Additional observations from a re-analysis of the deposited data

Results flagged for a closer look

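A single array lay far from the other arrays of its group in 6 of the 146 sets of 4 values examined; chance flags about 1 in 20 of such sets. Krtap5-3 read 8.10 on labelled-null array 2, with 8.30 to 8.33 on the others of its group. Krtap12-1 read 6.88 on labelled-null array 1, with 7.06 to 7.09 on the others, and 7.08 on control array 2, with 7.17 to 7.19 on the others. Krtap31-1 read 4.40 on control array 4, with 4.01 to 4.03 on the others. Among genes of the other lists, Krt14, a keratin of basal epidermis, read 11.80 on control array 2, with 11.90 to 11.92 on the others, and Dpt, a matrix gene of dermal fibroblasts, read 11.85 on control array 4, with 11.75 to 11.77 on the others.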

How the results depend on the processing

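In every fit run, 0 Krtap probe sets passed the threshold, and the lowest adjusted p of any named Krtap gene was 0.997. The median over the named genes lay between -0.013 (without labelled-null array 4) and 0.045 (without control array 1), and 13 to 25 of 44 lay below control with 1 array left out. With fewer probe sets tested, 6 of 16 (above the 30th percentile) and 5 of 9 (above the 50th) lay below control. The count of 15 over all probe sets was 0 with every probe set of the table or at an adjusted p of 0.01. It was 1 with the replicate block. It was 4 without control array 1 and labelled-null array 4, an alternative chosen after seeing the data. With 1 array left out it ran from 1 (without labelled-null array 1) to 8 (without labelled-null array 3). These settings differ in arrays, number of tests, threshold or model, and the cause of the lower counts was not tested. Deviations from the group means correlated at -0.23, 0.15, 0.12 and -0.10 between arrays with the same number. The labels give no litter, and these values cannot decide whether the numbers mark a pairing. The replicate block changed no Krtap call. Of 470 values of 28 named genes under other settings, 21 changed sign, all in genes whose interval includes 0. Krtap1-3 was 0.0024 with array weights and 0.053 without both arrays above, and Krtap10-10 was 0.0053 without them. With 1 array left out, the ranges that cross 0 were -0.047 to 0.063 (Krtap1-3), -0.063 to 0.098 (Krtap10-4), -0.096 to 0.011 (Krtap11-1), -0.015 to 0.19 (Krtap13-1), -0.13 to 0.0020 (Krtap15), -0.018 to 0.048 (Krtap17-1), -0.021 to 0.072 (Krtap19-4), -0.0098 to 0.14 (Krtap21-1), -0.15 to 0.036 (Krtap24-1), -0.11 to 0.036 (Krtap3-1), -0.18 to 0.056 (Krtap31-2) and -0.0076 to 0.20 (Krtap8-1). In these genes the sign rests on single arrays.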

Other observations

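Probe sets that list the same Krtap gene did not always vary alike between the 8 arrays. The 4 probe sets of Krtap2-4 tracked each other (r of deviations from the 8-array mean 0.966 to 1), as did both of Krtap4-13 (0.992). The probe set of Krtap10-10 and the one it shares with Krtap10-4 gave r = 0.86, whereas the own probe set of Krtap10-4 and the shared one gave 0.11. Krtap5-3 and the probe set it shares with Krtap5-2 gave -0.04, and Krtap6-1 and the one it shares with Krtap6-5 gave -0.18. These values describe 8 arrays and have no test.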
